A study of Mus musculus with 48 samples.

Results

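The 9 genes described here belong to hepatic glucose and glycogen handling and were followed through the day. They were chosen by name for their roles, with earlier results of these data known. Gys2, Ppp1r3b and Ppp1r3c stand on the storage side, and Pygl, G6pc, Pck1 and Fbp1 on the release side. Slc2a2 stands for glucose entry and Pklr for glycolysis. All 9 of 9 were listed in both assays and passed the filter on low values (a mean of at least 1 RPKM, reads scaled by gene length and library size, in each assay). They are 9 of the 9445 genes tested, and 11306 genes were listed in either assay. The samples were livers of male C57BL/6JRj mice aged 11 to 12 weeks, kept for 2 weeks under a cycle of 12 h light and 12 h dark before sampling at 12 zeitgeber times (ZT, hours after lights on) 2 h apart. At each time 2 lysate pools were made, each from 2 livers homogenised with cycloheximide, which holds ribosomes on the mRNA. Each of the 24 pools gave a total RNA library and a library of ribosome footprints, the mRNA pieces that ribosomes shield from nuclease, so there were 48 libraries with no treatment or genotype contrast. The 12 time points cover a single cycle, and each value is an average over the animals of a pool.

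Liver takes up glucose after meals and stores it as glycogen, a branched glucose polymer, and returns glucose to the blood between meals by breaking glycogen down and by building glucose from lactate, amino acids and glycerol. Storage runs through glycogen synthase, which protein phosphatase 1 activates when a targeting subunit brings it to the glycogen particle. Release runs through glycogen phosphorylase and, for new glucose, through phosphoenolpyruvate carboxykinase, fructose bisphosphatase and finally glucose 6-phosphatase, with insulin restraining and glucagon and glucocorticoids promoting transcription of its genes. Mice feed mainly in the dark.

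Depth, estimated in units of 1000000 reads from the step between low RPKM values, was 13.06 to 44.7 per footprint library (median 18.22) and 3.692 to 25.96 per total RNA library (median 12.21). The labels name no sequencing batch. All 6 hepatocyte markers checked were listed in both assays. Transcripts of exocrine pancreas were raised over 10 times the median in 6 of 24 pools, which were both pools of ZT2 and 1 pool each of ZT4, ZT6, ZT8 and ZT16, and 0 of 5 islet markers were listed. The 24 h fits of total RNA, of footprints and of their ratio over 48 libraries were repeated without those pools, and the counts of calls among the 9 genes were the same, 6 in total RNA, 6 in footprints and 0 in their ratio. In whole liver, fewer cells of a type and less RNA per cell cannot be told apart.

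Of the 9 genes, 6 cycled in both assays: Gys2, Ppp1r3b, Ppp1r3c, Pck1, Slc2a2 and Pklr. A call needed a Benjamini-Hochberg adjusted p under 0.05 for a 24 h curve (limma, moderated F over all 9445 genes) with a rise from trough to peak of no less than 1.5-fold. The same rule called 15.8% of all tested genes from total RNA and 16.7% from their footprints. The median fitted fold of the 9 genes was 2.07 in total RNA against 1.25 over all tested genes, and 2.44 against 1.23 in footprints. Because the 9 genes were chosen with earlier results of these data known, these comparisons describe them and do not test for enrichment. All 3 storage genes were called, against 1 of 4 release genes. These counts are small, and the release genes that were not called were not all flat. G6pc had a fitted range of 1.90-fold in total RNA with a wide spread between pools. It was called in both assays once the first pool of ZT0 was left out.

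**Figure D1:**
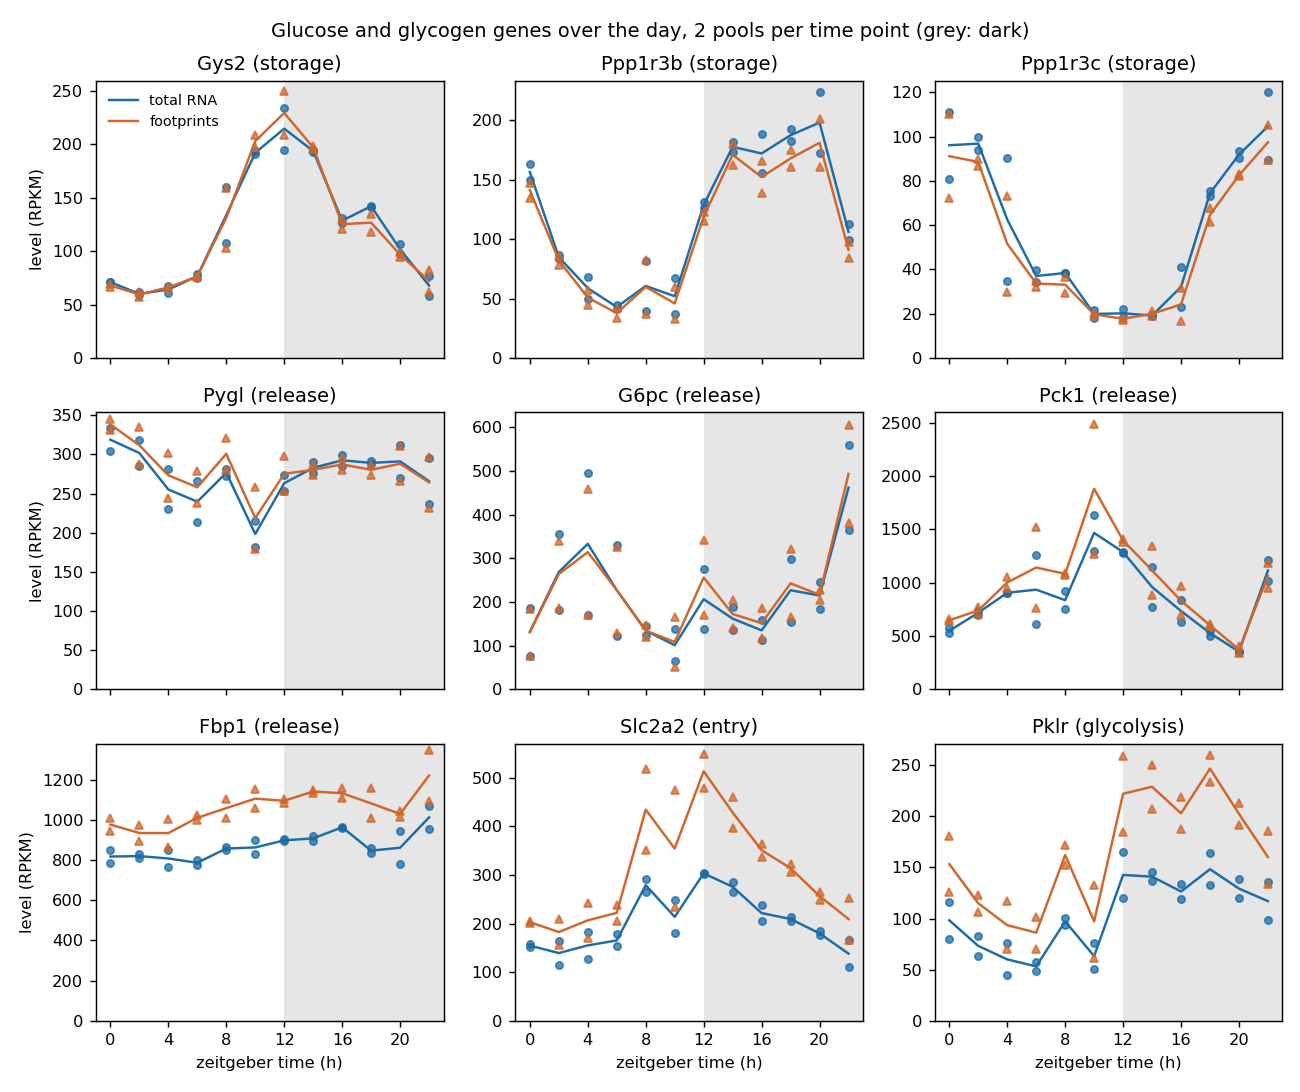
Level in RPKM (y axis, from 0) of each of the 9 genes against zeitgeber time in hours (x axis); circles are total RNA and triangles footprints of single pools, lines join the means of the 2 pools, and grey marks the dark. Gys2 and Slc2a2 are highest around ZT12, Ppp1r3b from ZT14 to ZT20, Pklr from ZT12 to ZT20 and Ppp1r3c from ZT18 to ZT2. Fbp1 stays between 767 and 1068 RPKM in total RNA.

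Gys2 encodes the liver form of glycogen synthase, the enzyme that lengthens glycogen chains (6:142422613-142473109, minus strand, GRCm38). Its total RNA level in the 2 pools was 71.1 and 70.8 at ZT0, 58.6 and 61.4 at ZT2, 60.5 and 67.6 at ZT4, 74.6 and 78.3 at ZT6, 107 and 160.2 at ZT8 and 190.4 and 193 at ZT10 RPKM. Dark-phase pools read 195 and 234 at ZT12, 194 and 193 at ZT14, 126 and 131 at ZT16, 142 and 142 at ZT18, 107 and 96.8 at ZT20 and 77.1 and 58.4 at ZT22 RPKM. Both pools of ZT10, ZT12 and ZT14 lay above every pool of the other 9 time points. Footprints ran from 57.2 RPKM in a ZT2 pool to 249 in a ZT12 pool, with the same 3 time points on top. The fitted range was 3.38-fold in total RNA (95% interval 2.83 to 4.05, n = 24 pools, limma adjusted p = 4.53e-10) and 3.46-fold in footprints (2.87 to 4.17, adjusted p = 7.14e-10). The curve peaked at ZT13.1 (12.5 to 13.7) in total RNA and at ZT12.9 (12.3 to 13.5) in footprints. The level was therefore already high in the last hours of light and near its minimum by the end of the dark.

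Ppp1r3b encodes GL, a targeting subunit that brings protein phosphatase 1 to glycogen in liver (8:35375739-35388139, plus strand). Total RNA of Ppp1r3b in the 2 pools read 163 and 149.6 at ZT0, 86.8 and 83.1 at ZT2, 49.3 and 68.3 at ZT4, 44.8 and 41.1 at ZT6, 81.5 and 39.8 at ZT8 and 36.7 and 67.3 at ZT10 RPKM. From ZT12 the pools of Ppp1r3b read 132 and 126 at ZT12, 174 and 182 at ZT14, 188 and 156 at ZT16, 193 and 182 at ZT18, 224 and 173 at ZT20 and 113 and 99.5 at ZT22 RPKM. Every total RNA pool from ZT4 to ZT10 lay below every pool of the other time points, and the level stayed high from ZT14 to ZT20. It fell to 113 and 99.5 RPKM at ZT22 and stood at 163 and 149.6 RPKM at ZT0. Footprints ran from 32.5 to 202 RPKM. The fitted range was 4.11-fold in total RNA (3.01 to 5.62, adjusted p = 4.07e-07) with a peak at ZT18.3 (17.3 to 19.2), and 4.05-fold in footprints with a peak at ZT18.2 (17.2 to 19.2). The 2 pools of ZT8 differed by 2.05-fold in total RNA and by 2.21-fold in footprints.

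Ppp1r3c encodes PTG, another subunit that ties the same phosphatase to glycogen and to its enzymes (19:36731731-36736653, minus strand). Total RNA of Ppp1r3c in the 2 pools read 81.0 and 111 at ZT0, 93.8 and 99.9 at ZT2, 34.6 and 90.5 at ZT4, 39.8 and 34.2 at ZT6, 38.5 and 38.3 at ZT8 and 18.3 and 21.5 at ZT10 RPKM. From ZT12 the pools of Ppp1r3c read 22.1 and 18.3 at ZT12, 19.1 and 19.2 at ZT14, 41.0 and 23.3 at ZT16, 75.6 and 73.2 at ZT18, 93.6 and 90.1 at ZT20 and 119.9 and 89.3 at ZT22 RPKM. Every pool from ZT18 through ZT2 lay above every pool from ZT6 to ZT16, and the pools of ZT10 to ZT14 were the lowest 6 in total RNA. Footprints ran from 16.8 RPKM in a ZT16 pool to 110.1 in a ZT0 pool. Ppp1r3c had the widest fitted range of the 9 genes, 5.65-fold in total RNA (4.22 to 7.55, adjusted p = 4.39e-09) and 5.59-fold in footprints (4.19 to 7.47, adjusted p = 4.43e-09). Its peak fell at ZT23.3 in both assays (22.6 to 24.0 in total RNA). Its trough, at ZT11.3, came while Gys2 was near its peak.

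The promoter of Ppp1r3c is shown because among the 8 promoters found for these genes it was the only 1 with an E-box, the letters CACGTG that clock factors of the basic helix-loop-helix class bind. The 300 bases from 250 before to 50 after the start are from RefSeq (GRCm38.p6, chr19:36736555-36736854, minus strand, 5′ to 3′), with the E-box at bases -104 to -99 in capitals.
Ppp1r3c promoter: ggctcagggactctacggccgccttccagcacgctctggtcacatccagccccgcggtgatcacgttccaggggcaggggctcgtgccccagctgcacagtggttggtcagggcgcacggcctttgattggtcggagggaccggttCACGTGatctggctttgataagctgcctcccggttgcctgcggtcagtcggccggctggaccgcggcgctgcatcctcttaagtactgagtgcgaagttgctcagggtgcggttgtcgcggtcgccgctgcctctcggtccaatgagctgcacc
An E-box is present in 7.15% of the 32851 promoters of that table. The match is a description of these letters and not a binding measurement.

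Within the storage side the 3 genes did not share a time of day. The peak of Ppp1r3b came 5.14 h after that of Gys2 in total RNA (95% interval 4.04 to 6.23) and 5.26 h after it in footprints (4.07 to 6.46). The peak of Ppp1r3c came a further 5.03 h later (3.88 to 6.18) in total RNA and 5.16 h later in footprints (3.92 to 6.40), which placed it 10.2 h after Gys2 (9.14 to 11.2) in total RNA. The ratio of Ppp1r3b to Ppp1r3c RPKM averaged 0.879 ± 0.0657 (SD, n = 2 pools) at ZT2 and 9.26 ± 0.260 at ZT14 in total RNA, and 0.931 ± 0.0839 and 8.56 ± 0.0608 in footprints. The 2 targeting subunits thus stood at about equal RPKM from ZT2 to ZT6 and at ZT22, while Ppp1r3b stood several-fold higher from ZT12 to ZT16.

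**Figure D2:**
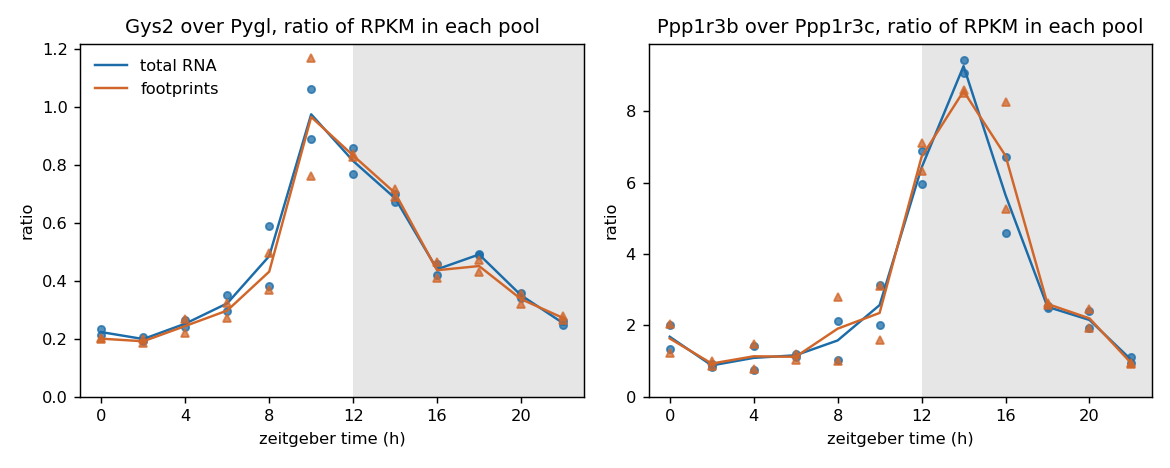
Ratio of RPKM within each pool (y axis, from 0) against zeitgeber time in hours (x axis) for Gys2 over Pygl (left) and Ppp1r3b over Ppp1r3c (right); circles are total RNA, triangles footprints, lines the means of 2 pools and grey the dark. Gys2 over Pygl is highest at ZT10 (0.974 in total RNA) and Ppp1r3b over Ppp1r3c at ZT14 (9.26).

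On the release side, Pygl encodes liver glycogen phosphorylase, which removes glucose units from glycogen (12:70190811-70231488, minus strand). Its total RNA ran from 182 RPKM in a ZT10 pool through a median of 281 to 334 in a ZT0 pool, and its footprints from 179 through 284 to 345. The lowest and highest time points were ZT10 and ZT0 in both assays. The 2 pools of ZT10 read 215 and 182 RPKM in total RNA, and those of ZT0 304 and 334. The 24 h curve spanned 1.24-fold in total RNA (1.08 to 1.43, adjusted p = 0.0384), short of the 1.5-fold required, and 1.16-fold in footprints (adjusted p = 0.243). With time taken as 12 separate levels instead of a curve, the gene passed in total RNA (range of the time-point means 0.69 on the log2 scale, limma adjusted p = 0.0258), where 30.3% of all genes passed. It did not pass in footprints that way (adjusted p = 0.241, where 22.8% passed). With the minimum fold dropped, 43.1% of all genes passed in total RNA, Pygl among them, and 45.0% in footprints.

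Set against Pygl in the same pool, Gys2 changed several-fold. The Gys2 to Pygl ratio averaged 0.199 ± 0.00913 (SD, n = 2) at ZT2 and 0.974 ± 0.122 at ZT10 in total RNA, and 0.191 ± 0.0102 and 0.964 ± 0.286 in footprints. The phosphorylase message was above the synthase message in RPKM at nearly every point, and the pair drew level only at ZT10.

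Pck1 encodes cytosolic phosphoenolpyruvate carboxykinase, which commits carbon from the citric acid cycle to glucose synthesis (2:173153048-173159273, plus strand). Its total RNA level in the 2 pools was 525 and 574 at ZT0, 699.6 and 738 at ZT2, 907 and 905 at ZT4, 609 and 1261 at ZT6, 918 and 754 at ZT8 and 1633 and 1302 at ZT10 RPKM. Dark-phase pools read 1283 and 1292 at ZT12, 771 and 1149 at ZT14, 834 and 635 at ZT16, 504 and 551 at ZT18, 353 and 355 at ZT20 and 1216 and 1014 at ZT22 RPKM. In total RNA the pools of ZT20 were the lowest and those of ZT10 and ZT12 the highest, with no overlap with other time points on either side. In footprints the ZT20 pools were again the lowest, but a ZT6 pool (1523 RPKM) lay above both ZT12 pools (1385 and 1407 RPKM). Footprints ran from 343 RPKM in a ZT20 pool to 2489 in a ZT10 pool, whose partner pool read 1272. The fitted range was 2.07-fold in total RNA (1.43 to 2.99, adjusted p = 0.00712) and 2.42-fold in footprints (1.70 to 3.43, adjusted p = 0.000800), peaking at ZT9.25 in both (7.14 to 11.4 in total RNA).

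A 24 h curve covered only part of the course of Pck1. It took up 45.4% of the variance between time points in total RNA and 61.6% in footprints, against 92.1% and 92.0% for Gys2. From ZT20 to ZT22 the level rose from 353 and 355 to 1216 and 1014 RPKM, then stood at 525 and 574 at ZT0. A 12 h term, tested after this course was seen, did not pass for Pck1 (limma adjusted p = 0.183 in total RNA and 0.314 in footprints), while 5.05% and 4.49% of all genes passed. With that term in the curve the fitted peak of Pck1 moved to ZT11.1 in total RNA and ZT10.8 in footprints. Among the 9 genes the 12 h term passed for Gys2 in footprints (0.43 on the log2 scale, adjusted p = 0.0386), and not without the pools holding pancreatic transcripts (adjusted p = 0.198, where 0.307% of all genes passed, and 0.572% in total RNA).

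The Pck1 promoter is shown for its cAMP response element, the letters TNACGTCA on either strand that CREB-family factors bind. Its 300 bases are from RefSeq (GRCm38.p6, chr2:173152823-173153122, plus strand, 5′ to 3′), with the element at bases -93 to -86 in capitals.
Pck1 promoter: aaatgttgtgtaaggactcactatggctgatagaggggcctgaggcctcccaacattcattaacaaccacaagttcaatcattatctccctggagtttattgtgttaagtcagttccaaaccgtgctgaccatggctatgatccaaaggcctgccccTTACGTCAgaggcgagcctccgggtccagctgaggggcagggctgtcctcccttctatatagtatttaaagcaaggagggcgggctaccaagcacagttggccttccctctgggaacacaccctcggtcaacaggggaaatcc
The letters occur in 2.93% of the 32851 promoters. RefSeq promoters were found for 7 of the 9 genes, and not for Gys2 and Ppp1r3b. Among the 8 promoters of those 7 genes, the D-box TTATGTAA (0.938% of all promoters), the ROR element ANTAGGTCA (0.661%) and the forkhead motif GTAAACA (3.65%), searched on both strands, gave 0 matches. No match says only that those letters are not in these windows.

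G6pc encodes the catalytic subunit of glucose 6-phosphatase, the last step before glucose leaves the cell (11:101367561-101377903, plus strand). Total RNA of G6pc in the 2 pools read 77.0 and 186 at ZT0, 183 and 355 at ZT2, 171 and 496 at ZT4, 123 and 332 at ZT6, 145 and 125 at ZT8 and 137 and 64.7 at ZT10 RPKM. From ZT12 the pools of G6pc read 138 and 274 at ZT12, 136 and 188 at ZT14, 158 and 112 at ZT16, 154 and 299.5 at ZT18, 185 and 245 at ZT20 and 559 and 365 at ZT22 RPKM. The mean was highest at ZT22 and lowest at ZT10, 4.57-fold apart in total RNA, and the 2 pools of a single time point differed by up to 2.91-fold. The fitted 24 h range was 1.90-fold in total RNA (1.09 to 3.31, adjusted p = 0.135) and 1.78-fold in footprints (0.983 to 3.23, adjusted p = 0.227), so G6pc was not called in either assay. Without the first pool of ZT0, which read 77.0 RPKM against 186 in its partner, it was called in both, with a log2 range of 1.25 (adjusted p = 0.0173) in total RNA and 1.15 (adjusted p = 0.0466) in footprints.

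The spread of G6pc between pools of one time point was among the widest in the data. The SD within time points was 0.68 on the log2 scale in total RNA and 0.71 in footprints, at the 97.9 and 98.8 percentile of all tested genes, whose medians were 0.18 and 0.17. The 2 pools differed by over 2-fold in total RNA at 4 of 12 time points, and most at ZT4, with 171 and 496 RPKM. The footprints of the same ZT4 pools read 169.6 and 459 RPKM. At 12 of 12 time points the pool that was higher in total RNA was also higher in footprints, and the 2 assays disagreed on the size of the difference by a median of 0.088 on the log2 scale. A pool holding pancreatic transcripts was the lower one for G6pc at each of the 4 time points with 1 such pool (ZT4, ZT6, ZT8 and ZT16). The same held for Pygl in total RNA, though not in footprints at ZT8. The part of such pools in the spread of G6pc was not tested. At ZT22, where neither pool held pancreatic transcripts, G6pc read 559 and 365 RPKM.

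Pklr pools also kept their order across the assays at 12 of 12 time points, Pygl and Ppp1r3b at 11, Gys2 and Fbp1 at 10, Pck1 and Slc2a2 at 9 and Ppp1r3c at 7. For most of these genes the differences were small, with a median between the pools of 1.03-fold for Fbp1 and 1.05-fold for Gys2 in total RNA, against 1.94-fold for G6pc. Both assays of a pool start from the same lysate. The plot of pool differences shows G6pc spread along the line of equal difference.

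**Figure D3:**
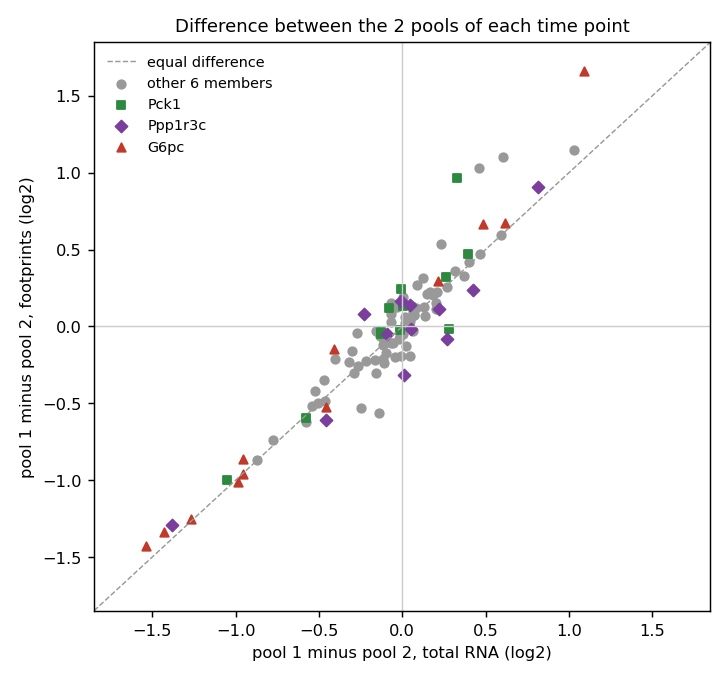
Log2 difference between the first and the second pool of each time point in total RNA (x axis) and in footprints (y axis), 1 point per gene and time point; the dashed line marks equal differences. G6pc (red triangles) covers the widest span, and its 2 assays differ by a median of 0.088, while most points of the other genes lie near 0.

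Fbp1, fructose bisphosphatase of gluconeogenesis, was the steadiest of the 9 genes (13:62864753-62888282, minus strand). Its total RNA ran from 767 RPKM in a ZT4 pool through a median of 856 to 1068 in a ZT22 pool, and its footprints from 866 through 1052 to 1349. The fitted range was 1.14-fold in total RNA (1.03 to 1.25, adjusted p = 0.0685) and 1.17-fold in footprints (1.06 to 1.30, adjusted p = 0.0335), below the 1.5-fold required. Its SD within time points in total RNA, 0.08 on the log2 scale, stood at the 4.64 percentile of all tested genes.

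Slc2a2 encodes GLUT2, the low-affinity transporter through which glucose enters and leaves hepatocytes (3:28697903-28731359, plus strand). Total RNA of Slc2a2 in the 2 pools read 158 and 151 at ZT0, 114 and 164 at ZT2, 128 and 182 at ZT4, 153 and 178 at ZT6, 265 and 292 at ZT8 and 248 and 179.8 at ZT10 RPKM. From ZT12 the pools of Slc2a2 read 302 and 304 at ZT12, 265 and 286 at ZT14, 237 and 206 at ZT16, 204 and 214 at ZT18, 176 and 184 at ZT20 and 166 and 110.2 at ZT22 RPKM. The pools of ZT8, ZT12 and ZT14 were above all others in total RNA, while at ZT10 the pools read 248 and 179.8 RPKM. Footprints ran from 156 RPKM in a ZT2 pool to 548 in a ZT12 pool. The fitted range was 2.01-fold in total RNA (1.66 to 2.42, adjusted p = 8.06e-06) and 2.44-fold in footprints (1.94 to 3.08, adjusted p = 4.29e-06), with peaks at ZT12.6 (11.5 to 13.7) and ZT12.8 (11.8 to 13.9).

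Pklr encodes the liver and red cell pyruvate kinase, the last step of glycolysis (3:89136142-89146784, plus strand). Its total RNA level in the 2 pools was 80.1 and 116 at ZT0, 63.1 and 83.4 at ZT2, 44.3 and 75.8 at ZT4, 48.6 and 57.8 at ZT6, 93.9 and 100.5 at ZT8 and 76.3 and 50.2 at ZT10 RPKM. Dark-phase pools read 119.9 and 165 at ZT12, 145 and 137 at ZT14, 134 and 119 at ZT16, 133 and 164 at ZT18, 138 and 120.1 at ZT20 and 136 and 98.3 at ZT22 RPKM. Apart from the first ZT22 pool, every pool from ZT12 to ZT20 lay above all pools of the other time points. Footprints ran from 61.8 RPKM in a ZT10 pool to 260.1 in a ZT18 pool. The fitted range was 2.43-fold in total RNA (1.86 to 3.17, adjusted p = 3.28e-05) and 2.45-fold in footprints (1.80 to 3.33, adjusted p = 0.000164), with peaks at ZT17.0 and ZT16.9. The exons of Pklr overlap those of Hcn3 on the opposite strand at the 3′ end of both, and whether the counting used strand is not given in the sources used here. Red cell markers, which could share Pklr, were present in every pool, with 2 of 3 listed and a summed level of 179 to 612 RPKM in total RNA. Their part in the Pklr level was not tested.

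Pklr consumes phosphoenolpyruvate in glycolysis and Pck1 makes it in gluconeogenesis, and their ratio moved by most between ZT10 and ZT20. The Pklr to Pck1 ratio in total RNA averaged 0.0427 ± 0.00576 (SD, n = 2) at ZT10 and 0.365 ± 0.0382 at ZT20. In footprints the same times gave 0.0509 ± 0.00328 and 0.542 ± 0.0237. At ZT22 the ratio was back at 0.104 ± 0.0104 in total RNA.

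The 6 rhythmic genes peaked in the order Pck1, Slc2a2, Gys2, Pklr, Ppp1r3b and Ppp1r3c in both assays. In total RNA Slc2a2 followed Pck1 by 3.31 h (95% interval 0.826 to 5.80), Pklr followed Gys2 by 3.92 h (2.64 to 5.20) and Ppp1r3c followed Ppp1r3b by 5.03 h. Slc2a2 and Gys2 could not be separated (0.564 h, -0.450 to 1.58), nor could Pklr and Ppp1r3b (1.21 h, -0.0796 to 2.51). In footprints the same pairs were apart by 3.56 h, 3.96 h and 5.16 h, and the same 2 pairs were not separated (0.106 h, -0.890 to 1.10, and 1.30 h, -0.182 to 2.79). Only 1 of the 4 release genes had a called peak, so storage and release could be set side by side only through Pck1, whose peak came 3.88 h before that of Gys2 in total RNA (1.66 to 6.10) and 3.67 h before it in footprints (1.96 to 5.38). With a 12 h term added, the fitted peaks in total RNA lay at ZT11.1 for Pck1, ZT12.2 for Slc2a2 and ZT12.0 for Gys2. Those of Pklr, Ppp1r3b and Ppp1r3c lay at ZT16.4, ZT16.2 and ZT22.0. The order within each of the 2 unseparated pairs was exchanged. Pck1 (ZT11.1) and Gys2 (ZT12.0) then lay closer together than on the 24 h curve, so the lag between them depends on the curve fitted.

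**Figure D4:**
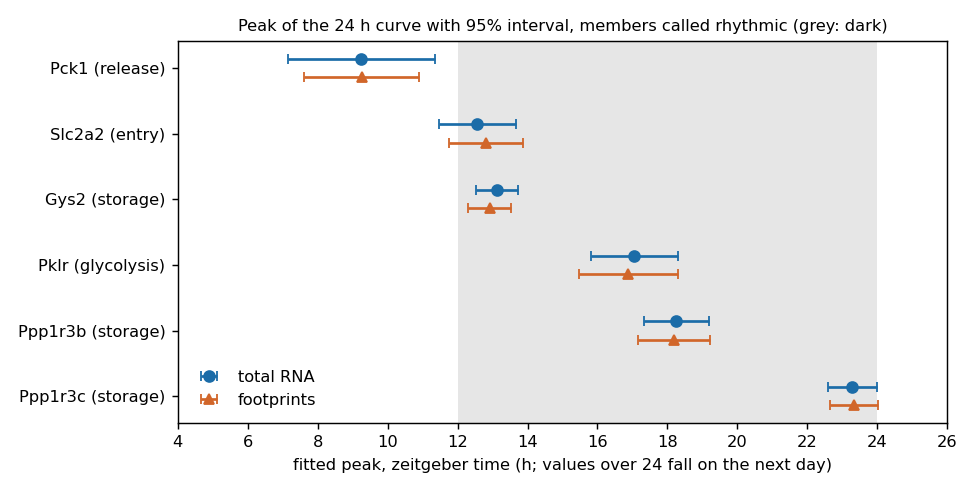
Fitted peak of the 24 h curve (x axis, zeitgeber time in hours) with its 95% interval for the 6 genes called in both assays, circles for total RNA and triangles for footprints; grey marks the dark. The intervals of the 2 assays overlap for each gene, and the peaks run from ZT9.25 for Pck1 to ZT23.3 for Ppp1r3c.

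Footprints followed total RNA closely in time. The footprint peak differed from the total RNA peak by -0.203 h for Gys2 (95% interval -0.417 to 0.0109), -0.0742 h for Ppp1r3b (-0.266 to 0.118), 0.0497 h for Ppp1r3c (-0.249 to 0.349) and 0.00296 h for Pck1 (-0.765 to 0.771). It differed by 0.254 h for Slc2a2 (-0.245 to 0.754) and by -0.164 h for Pklr (-0.619 to 0.290). All 6 intervals include 0.

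A 24 h rhythm in translation efficiency, the ratio of footprints to total RNA, was called for 0 of the 9 genes (assay by curve interaction in limma over 48 libraries, adjusted p under 0.05), against 0.371% of all tested genes. At an unadjusted p under 0.05 the count was also 0 of 9, against 1041 of 9445 genes, and with time as 12 levels 0 of 9 were called against 0.413% of all genes. Within the lysate pools, which pair the assays, 0 of 9 were called against 3.23% of all genes, and 2 of 9 had an unadjusted p under 0.05, as did 2070 of 9445 genes, so this count is close to the share over all genes. The first was Slc2a2, with a fitted range of 1.23-fold over 24 pools (limma adjusted p = 0.0944). The other was Pygl, with 1.12-fold (limma adjusted p = 0.168). The 95% intervals of the paired range reached at most 0.47 on the log2 scale, for Slc2a2, so larger 24 h changes in the ratio lie outside them for these genes.

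The genes differed in their mean ratio of footprints to total RNA. Ppp1r3c had a geometric mean ratio of 0.899 and Ppp1r3b of 0.909 over 24 pools, Gys2 of 0.996, Pygl of 1.03 and G6pc of 1.04. Pck1 followed with 1.13, Fbp1 with 1.22, Slc2a2 with 1.47 and Pklr with 1.57. The median over all tested genes was 0.791, and the 9 genes stood between the 59.99 percentile for Ppp1r3c and the 92.9 percentile for Pklr.

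On the log2 scale the mean ratio was -0.15 ± 0.16 (SD, n = 24) for Ppp1r3c and 0.65 ± 0.12 for Pklr, and Pklr was higher in 24 of 24 pools. The step from Fbp1 to Slc2a2 also went one way in 24 of 24 pools, by 0.27 ± 0.16 on the log2 scale. The order was less constant for Slc2a2 and Pklr (Pklr higher in 15 of 24 pools) and for Gys2 and Pygl (Pygl higher in 16). The same held for Pygl and G6pc (G6pc higher in 13) and for Ppp1r3c and Ppp1r3b (Ppp1r3b higher in 14). Each of these steps was smaller than its SD over pools, and the difference in means was not tested. RPKM is scaled within each assay, so a ratio of 1 has no absolute meaning.

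**Figure D5:**
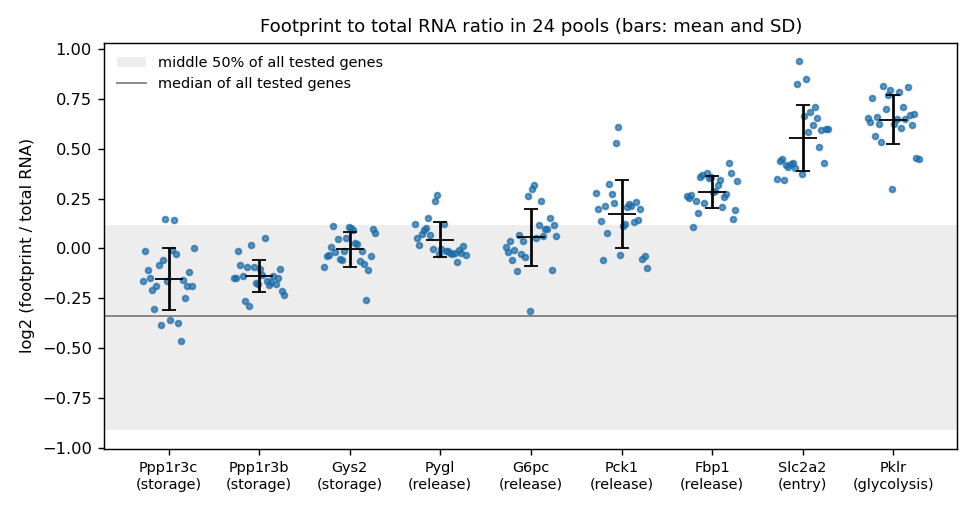
Log2 ratio of footprint to total RNA RPKM (y axis) for each gene, 1 point per pool in time order, with black bars for the mean and SD over 24 pools; the grey line and band are the median and middle 50% of all 9445 tested genes. Slc2a2 and Pklr lie above the band in every pool, and Ppp1r3b and Ppp1r3c lie lowest.

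By level, which RPKM gives per length, Fbp1 and Pck1 stood highest in total RNA, with means of 870.0 ± 73.6 and 866 ± 340.1 RPKM (SD, n = 24). Pygl followed with 273 ± 35.9, G6pc with 217 ± 127 and Slc2a2 with 203 ± 59.3. Gys2 (120.4 ± 55.6), Ppp1r3b (119 ± 58.4) and Pklr (104 ± 36.7) lay close together, and Ppp1r3c was lowest with 57.8 ± 34.6. Pck1 exceeded Pygl in 24 of 24 pools and Slc2a2 exceeded Gys2 in 23 of 24. Fbp1 exceeded Pck1 in 14 of 24, G6pc exceeded Slc2a2 in 11 of 24 and Ppp1r3b exceeded Pklr in 15 of 24, so these neighbours did not differ beyond the spread over the day. The median over all tested genes was 12.8 RPKM.

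Beyond the 9 genes, lists of the surrounding pathway were read in the same fits, with 87 of 104 genes tested. Of the 87, 24 passed in each assay, where 15.8% of all tested genes passed in total RNA and 16.7% in footprints. In translation efficiency 0 passed (0.371% of all genes) and in the paired ratio 6 (3.23%). The median fold was 1.29 in both assays. The counts of single lists that follow are small, and they are to be read against those same shares.

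Of 10 tested genes of glycogen synthesis and its control, 3 were called in each assay. They were Ugp2, which makes UDP-glucose (1.75-fold, peak ZT11.0 in total RNA, adjusted p = 3.25e-05), Gbe1, the branching enzyme (1.56-fold, ZT14.8, adjusted p = 0.000723), and Stbd1, a glycogen-binding protein (1.79-fold, ZT11.9, adjusted p = 0.000547). The median fold of the list was 1.24. For glycogen breakdown, total RNA gave 0 calls and footprints gave 2 among 7 tested genes. Among them was the phosphorylase kinase subunit Phkg2 (1.51-fold in footprints, ZT9.40, adjusted p = 0.00375).

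For gluconeogenesis and glucose release, total RNA gave 3 calls and footprints gave 2 among 11 tested genes. The glucose 6-phosphate transporter Slc37a4, which works with G6pc, cycled 2.25-fold with a peak at ZT14.3 (adjusted p = 1.51e-06), and 2.60-fold in footprints. The alanine aminotransferase Gpt2 cycled 1.59-fold with a peak at ZT15.7 (adjusted p = 8.66e-05). G6pc3, a widely expressed relative of G6pc, was called in total RNA only (1.62-fold, ZT3.43, adjusted p = 0.0416), at a mean of 1.42 RPKM. Pcx, pyruvate carboxylase, gave 1.15-fold (adjusted p = 0.0585) and Pck2, the mitochondrial relative of Pck1, 1.11-fold (adjusted p = 0.629).

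Glycolysis had the most calls, 8 of 20 tested genes in total RNA and 7 in footprints, with a median fold of 1.42 in total RNA. Each of these called genes peaked in the dark. Over all lists together, glycolysis included, 16 of 24 called genes did so in total RNA and 17 of 24 in footprints. The share of dark peaks over all called genes is not given here. Pfkfb3, which sets the level of fructose 2,6-bisphosphate, had the widest range of the list with 5.95-fold at ZT12.2 (adjusted p = 2.19e-06) at a mean of 5.56 RPKM, and its liver relative Pfkfb1 cycled 2.35-fold at ZT18.1. The fructose enzymes Khk (1.58-fold, ZT19.0) and Tkfc (2.04-fold, ZT16.4), the isomerase Gpi1 (1.60-fold, ZT17.5) and Pfkfb2 (1.74-fold, ZT13.8) were also called.

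Of 11 tested genes of pyruvate use, 3 were called in each assay. Pdk4, a kinase that switches pyruvate dehydrogenase off, cycled 6.59-fold with a peak at ZT23.2 (adjusted p = 2.57e-05) and 8.32-fold in footprints at ZT23.2. Pdk1 (1.56-fold, ZT17.7) and the dehydrogenase subunit Pdhb (1.5-fold, ZT12.4) were the others. Of 4 tested glucose transporters besides Slc2a2, 1 was called in total RNA, the fructose transporter Slc2a5 (2.22-fold, ZT9.51, adjusted p = 0.000365), and the urate transporter Slc2a9 was called beside it in footprints (1.57-fold, ZT9.77).

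For hormone and transcription regulators, total RNA gave 6 calls and footprints gave 5 among 24 tested genes. Irs2, which carries the insulin signal in liver, cycled 3.34-fold with a peak at ZT0.885 (adjusted p = 0.00360). Irs1 was called in total RNA only, 1.75-fold with a peak at ZT23.6 (adjusted p = 3.20e-05). Srebf1, which drives lipogenic genes, cycled 1.97-fold with a peak at ZT15.0. Mlxipl, the glucose-responsive factor ChREBP, cycled 1.5-fold with a peak at ZT1.83 in total RNA and 1.79-fold with a peak at ZT3.01 in footprints. Klf10 (3.30-fold, ZT9.87) and Cebpb (1.71-fold, ZT11.0, called in total RNA only) peaked in the light. The kinase Sik1 was called in footprints only (1.71-fold, ZT17.1, adjusted p = 0.0198). Ppargc1a, a coactivator of gluconeogenic genes, gave 1.03-fold (adjusted p = 0.981) in total RNA and 1.28-fold (limma adjusted p = 0.159) in footprints. Foxo1 gave 1.31-fold (adjusted p = 0.0675) in total RNA and 1.295-fold (adjusted p = 0.0084) in footprints. The glucagon receptor gene Gcgr gave 1.17-fold (adjusted p = 0.111) and 1.18-fold (adjusted p = 0.0396). In footprints Foxo1 and Gcgr thus missed a call only by the 1.5-fold required.

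The genes whose course lay closest to each rhythmic member were found by the root mean square difference between the 12 centred time-point means of both assays, which share libraries. Slc25a47 was nearest to Pck1 (0.205 on the log2 scale), followed by Abcg8 (0.252) and Slc7a2 (0.256). Adarb1 (0.163), Slc6a9 (0.180) and Slc19a1 (0.182) were nearest to Slc2a2, and Slc19a1 (0.250) was also nearest to Gys2, before Ddhd2 (0.271) and Bnip3 (0.277). Tedc2 (0.158), Tkfc (0.180) and Ttc23 (0.211) were nearest to Pklr. Ddit4 (0.356), Tsc22d3 (0.375) and P4ha1 (0.404) were nearest to Ppp1r3b, and Aqp8 (0.311), Coq8a (0.339) and Fam222a (0.350) to Ppp1r3c.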

How the data were processed

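Total RNA and ribosome footprints were sequenced from the same 24 lysate pools, per the labels' protocols. The authors deposited RPKM per gene for each library. The submitters' processing notes name CASAVA 1.82, cutadapt, Cufflinks 2.2.1, TopHat2 2.0.11, Bowtie2 2.2.1 and edgeR, beside builds GRCm38.p2 and mm10. The sources used here do not state the gene models or whether counting used strand. Estimated depths are given with the results, and low depth widens the spread of low values most.

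RPKM values were taken as log2(RPKM + 0.1), so folds of low genes are understated, and genes averaging 1 RPKM or more in each assay were kept. A 24 h cosine and sine were fitted with limma 3.58.1 in R 4.3.3 (moderated F test, mean-variance trend, Benjamini-Hochberg adjustment over 9445 genes). For translation efficiency the test was an assay by curve interaction over 48 libraries and, paired, on the log2 ratio within each pool. The pairing comes from the shared lysate, and deviations of the same pool in both assays correlated across genes at 12 of 12 time points (r = 0.16 to 0.683). The scripts were tested on simulated data. Pools were treated as replicates, 2 per time point. Intervals for peak times and for fitted ranges come from the fitted coefficients (delta method). A fitted range cannot be negative on the log2 scale, so an interval that leaves out no change is not a test. Calls rest on the F test.

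Names and coordinates follow GENCODE M21 (GRCm38), and 11242 of 11306 identifiers matched. Named genes are the 9 members, genes of fixed pathway lists (those that passed a call, and a few that did not, chosen for their role after their values were seen) and the 3 nearest courses of each rhythmic member. Some called genes of the lists are counted but not reported here by name. The members and lists were chosen with earlier results of these data known. The 12 h term and the description of pool differences were added after the data were seen. Alternatives changed the pseudocount, filter, scaling, minimum fold, trend, time model, pairing and the pools used.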

Additional observations from a re-analysis of the deposited data

How the results depend on the processing

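The counts of rhythmic members stayed at 6 in total RNA, 6 in footprints and 0 in efficiency with pseudocounts of 1 or 0.01, no filter, rescaled libraries, no trend and without the pools holding pancreatic transcripts. With single pools left out they ran from 6 to 7, 6 to 7 and 0 to 0. The mean log2 efficiency of Gys2, near 0, ran from -0.01 to 0.01 with single pools left out. Time as a factor or no minimum fold added Pygl in total RNA (limma adjusted p = 0.0258 and 0.0384), and no minimum fold added Fbp1 in footprints (adjusted p = 0.0335). Both 24 h results depended on the pools used. With single pools left out the limma adjusted p ran from 0.0095 to 0.0933 for Pygl and from 0.0026 to 0.0813 for Fbp1. Without the pancreatic pools it was 0.119 for Pygl in total RNA. Leaving out the first pool of ZT0 added G6pc. Over all genes the total RNA count of 1494 became 2863 with time as a factor and 4072 with no minimum fold, where the footprint count of 1573 became 4253, since the fold was no longer required in the latter setting. With single pools left out these counts ran from 1415 to 1625 and from 1497 to 1666. For efficiency, the 35 calls over all genes became 0 without the pancreatic pools and ran from 16 to 52 with single pools left out. With the replicate block, which pairs the assays within a pool, they became 305, and the block changed no call of a member. With a 12 h term added, peak times in footprints moved to ZT11.9 for Gys2, ZT16.0 for Ppp1r3b, ZT22.3 for Ppp1r3c and ZT12.0 for Slc2a2; the cause of these moves was not tested. The spread between 2 pools per time point limits G6pc most.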
